A study of Mus musculus with 6 samples.

Results

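The genes described here are 37 genes of the interferon response and of antigen presentation by major histocompatibility complex (MHC) class I molecules, followed library by library in heart muscle cells from mice given α-ketoglutarate (AKG) or saline. They were taken by symbol from the deposited table, which names 22033 genes, and all 37 passed the filter on low counts that left 13117 genes. Per the labels' protocols, wild-type mice of postnatal day 21 were injected daily for 2 weeks with AKG (300 mg per kg), a metabolite of the tricarboxylic acid cycle, or with phosphate-buffered saline (Control). Day 21 is given both for the injected mice and for those whose cells were taken, so the ages when injections began and ended are not clear. Heart muscle cells were then isolated by Langendorff perfusion, in which enzymes are run through the coronary vessels, and their mRNA was sequenced in 3 Control and 3 AKG libraries. Whether mice were pooled for a library is not stated, and each p-value measures only the spread between these libraries, which may be technical. The series asked which pathways accompany a treatment that it links to division of heart muscle cells.

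Interferons are cytokines that cells release when they sense foreign nucleic acid or, in the case of interferon-γ, that T cells and natural killer cells release. Type I interferons act through JAK kinases on a complex that includes STAT2 and IRF9 and binds the interferon-stimulated response element, and interferon-γ acts through the gamma-activated site. Their targets include antiviral proteins, large GTPases that attack intracellular pathogens, and the machinery that cuts proteins with the immunoproteasome, moves the peptides through the TAP transporter and loads them on class I molecules.

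The letters before the start sites of these genes are shown first, as the genes differ in the interferon motifs they hold there. Sequences come from RefSeq with build GRCm38.p6, and 31 of the 37 genes had at least 1 window of 250 bases before to 50 bases after a start site. Nlrc5, Parp14, Rtp4, Tap2, Usp18 and Parp9 had no entry. The response element was searched on both strands as GAAA, 2 bases of any kind and GAAA, and the gamma-activated site as TTCNNNGAA, and the matches are printed in capitals. Of 32851 such windows of all genes, 3.44% held the first and 8.3% the second. Of the 31 genes, 14 held the first, among them 5 of 5 interferon-inducible GTPases, and 7 held the second. The NF-kB motif, searched as GGG, 2 bases of any kind and TTTCC, was in 1.63% of all windows and in 1 of these genes, B2m.
For the GTPases Igtp (chr11:58199306-58199555, plus strand), Irgm1 (chr11:48871421-48871670, minus strand), Gbp7 (chr3:142530086-142530335, plus strand) and Gbp2 (chr3:142620413-142620662, plus strand), the 250 bases before the start read, 5′ to 3′:
Igtp: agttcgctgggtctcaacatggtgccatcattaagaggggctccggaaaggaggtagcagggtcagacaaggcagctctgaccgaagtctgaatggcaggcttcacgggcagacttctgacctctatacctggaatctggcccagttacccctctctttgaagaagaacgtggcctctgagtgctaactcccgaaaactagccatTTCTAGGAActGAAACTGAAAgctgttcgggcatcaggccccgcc
Irgm1: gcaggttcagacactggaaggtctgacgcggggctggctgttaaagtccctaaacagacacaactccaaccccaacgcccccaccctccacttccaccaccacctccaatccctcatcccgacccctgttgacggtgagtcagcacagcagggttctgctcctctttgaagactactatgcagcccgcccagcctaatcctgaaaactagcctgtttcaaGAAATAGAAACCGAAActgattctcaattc
Gbp7: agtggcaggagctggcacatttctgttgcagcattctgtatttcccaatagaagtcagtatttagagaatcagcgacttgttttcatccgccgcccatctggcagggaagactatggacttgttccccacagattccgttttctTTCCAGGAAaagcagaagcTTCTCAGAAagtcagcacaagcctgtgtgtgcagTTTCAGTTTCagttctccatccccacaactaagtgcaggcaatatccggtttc
Gbp2: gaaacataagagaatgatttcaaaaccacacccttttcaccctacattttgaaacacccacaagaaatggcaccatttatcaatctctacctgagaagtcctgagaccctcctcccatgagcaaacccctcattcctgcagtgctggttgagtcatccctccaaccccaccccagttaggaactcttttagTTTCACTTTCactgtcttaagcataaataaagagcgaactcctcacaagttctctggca
Igtp held a gamma-activated site 45 bases before the start and a response element 34 bases before it. Irgm1 held overlapping response elements at 30 and 24 bases, Gbp7 gamma-activated sites at 106 and 87 bases and a response element at 53, and Gbp2 a response element at 59.

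Irf1 (chr11:53769764-53770013, plus strand) is shown for a single gamma-activated site 90 bases before its start, and Tap1 (chr17:34187331-34187555, plus strand) for the 225 bases between its start and that of Psmb9, which is read in the opposite direction. Psme1 (chr14:55578493-55578522, plus strand), which was lower in all AKG libraries, is shown for the 30 bases around a response element 10 bases after its start.
Irf1: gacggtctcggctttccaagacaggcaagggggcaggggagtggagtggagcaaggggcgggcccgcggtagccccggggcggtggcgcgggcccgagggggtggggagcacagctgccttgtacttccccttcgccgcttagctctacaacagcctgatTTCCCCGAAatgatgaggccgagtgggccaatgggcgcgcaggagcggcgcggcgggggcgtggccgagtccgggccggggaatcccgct
Tap1: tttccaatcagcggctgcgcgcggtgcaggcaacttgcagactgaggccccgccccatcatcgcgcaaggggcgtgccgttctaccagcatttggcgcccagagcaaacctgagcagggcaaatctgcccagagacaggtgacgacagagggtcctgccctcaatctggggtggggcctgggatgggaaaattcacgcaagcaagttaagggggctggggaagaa
Psme1: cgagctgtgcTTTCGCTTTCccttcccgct
The stretch between Tap1 and Psmb9 held neither motif as searched, which says only that these letters are not in it. As a description of level against motif, the ratio of AKG 3 to the Control mean had a median of 1.60 over the 14 genes whose window held a response element and of 1.64 over the 17 whose window did not.

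Libraries held between 14402875 and 17797348 counts, and levels below are CPM, counts scaled to a library total corrected by edgeR's trimmed-mean method (TMM), with log2 fold changes as AKG over Control. AKG 3 stood apart from the other 5 libraries in these genes. The genes and lists were chosen with earlier results of these data known. The counts that follow therefore describe AKG 3 and are not independent support. It held 39 genes at 2 or more times the level of every other library, against 4 to 13 such genes in each of the others, and 11 of the 39, which are 0.297% of all tested genes, were among the 37 described here. The 11 were Gbp2, Igtp, Nlrc5, Gbp7, Irgm1, Tap1, Gbp3, Irf1, Ifit2, Ifit1 and Psmb9, at 2.01 to 6.49 times the next highest library. A further 15 of the 39 were other interferon pathway genes and 13 were in neither set, led by Serpina3n at 28.7 times and Serpina3g at 21.4 times. Of the 37 genes, 29 had their highest level in AKG 3, whereas 19.5% of all tested genes did, and 20 had their lowest in AKG 2. The counts and the main values of these genes are therefore given with and without AKG 3.

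The markers of heart muscle cells had the largest sum of the cell types listed in every library. They summed to 58911 to 64397 CPM in Control and 25740 to 28808 CPM in AKG libraries. Of 7 tested, 6 fell and 0 rose, with a median log2 fold change of -1.16, and the counts were the same without AKG 3. AKG 3, at 27799 CPM, lay between the other AKG libraries. In bulk RNA, fewer cells of a type and less RNA per cell cannot be told apart. Macrophage markers summed to 166 to 251 CPM in Control and 108 to 139 CPM in AKG, and 9 of 16 tested fell, or 10 without AKG 3. Lymphocyte and natural killer cell markers summed to 7.29 to 11.2 CPM and 2.33 to 4.10 CPM, with the lowest sum in AKG 3, where Cd3e, Cd8a, Nkg7, Ncr1 and Gzma were at 0 counts (3 counts would be 0.166 CPM). Dendritic cell markers summed to 39.3 to 43.0 CPM in Control and 25.7 to 32.2 CPM in AKG. Neutrophil markers summed to 2.30 to 3.06 CPM in Control and to 7.98, 12.7 and 15.4 CPM in AKG 1, 2 and 3. All 5 tested neutrophil markers rose, or 4 of 5 without AKG 3, and Ly6g, Elane and Mpo were at 0 counts in every library. Endothelial markers summed to 1923 to 2122 CPM and 1936 to 2301 CPM, with 3 of 12 higher and 2 lower. Pericyte and smooth muscle markers summed to 2233 to 2447 CPM in Control and 1319 to 1513 CPM in AKG, with 1 of 9 higher and 6 lower, and fibroblast markers to 3092 to 3826 CPM and 2704 to 3495 CPM, with 2 of 11 higher and 5 lower. Transcripts of the atria summed to 6.40 to 12.0 CPM in Control and to 359, 7.58 and 220 CPM in AKG 1, 2 and 3, and Y-linked transcripts to 168, 0.311 and 176 CPM in Control and 89.2, 50.4 and 39.0 CPM in AKG. Of all tested genes, 25% rose and 25.2% fell, or 24.7% and 24.3% without AKG 3. The part of the marker differences in the results below was not tested.

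Across all 3 AKG libraries, few of the 37 genes passed the test. Only Trim25 rose, and 5 genes fell: Ifi35, H2-D1, Psmb10, Psme1 and Psme2. edgeR's quasi-likelihood test with Benjamini-Hochberg adjustment over all tested genes, at a threshold of 0.05, called 25% of all genes higher and 25.2% lower. The other 31 of the 37 were not called, and the median log2 fold change was 0.07, beside 0.00 over all tested genes. All 3 AKG libraries lay above all 3 Controls for 2 genes (Ifit2 and Trim25) and below them for the 5 that fell, as did 29.4% and 29.9% of all tested genes. Without AKG 3, 14 genes fell, including the 5 above, 2 rose (Ifit2 and Trim25), and the median was -0.29. In that fit, 24.7% of all tested genes were called higher and 24.3% lower. AKG 3 was set apart by its high values in these same genes, so leaving it out lowers most of their values by selection. The falls and p-values without AKG 3, here and below, are therefore descriptions and not independent support for lower levels.

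The AKG libraries were also set 1 at a time against the 3 Controls, the lone library being assumed to vary as the Controls do. AKG 3 alone gave 25 of the 37 genes as higher and 5 as lower, AKG 2 alone gave 2 and 15, and AKG 1 alone gave 6 and 6. The share of all tested genes called higher was 22.6%, 20.1% and 22% in these fits, and the share called lower was 22.8%, 20.7% and 22.2%. In AKG 3, 29 genes lay above the highest Control, against 8 in AKG 1 and 3 in AKG 2. The share of all tested genes that lay above was 40.5%, 40.3% and 40.3% in these libraries. Over the 37 genes, the median log2 ratio to the Control mean was -0.16 in AKG 1, -0.46 in AKG 2 and 0.69 in AKG 3.

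**Figure D1:**
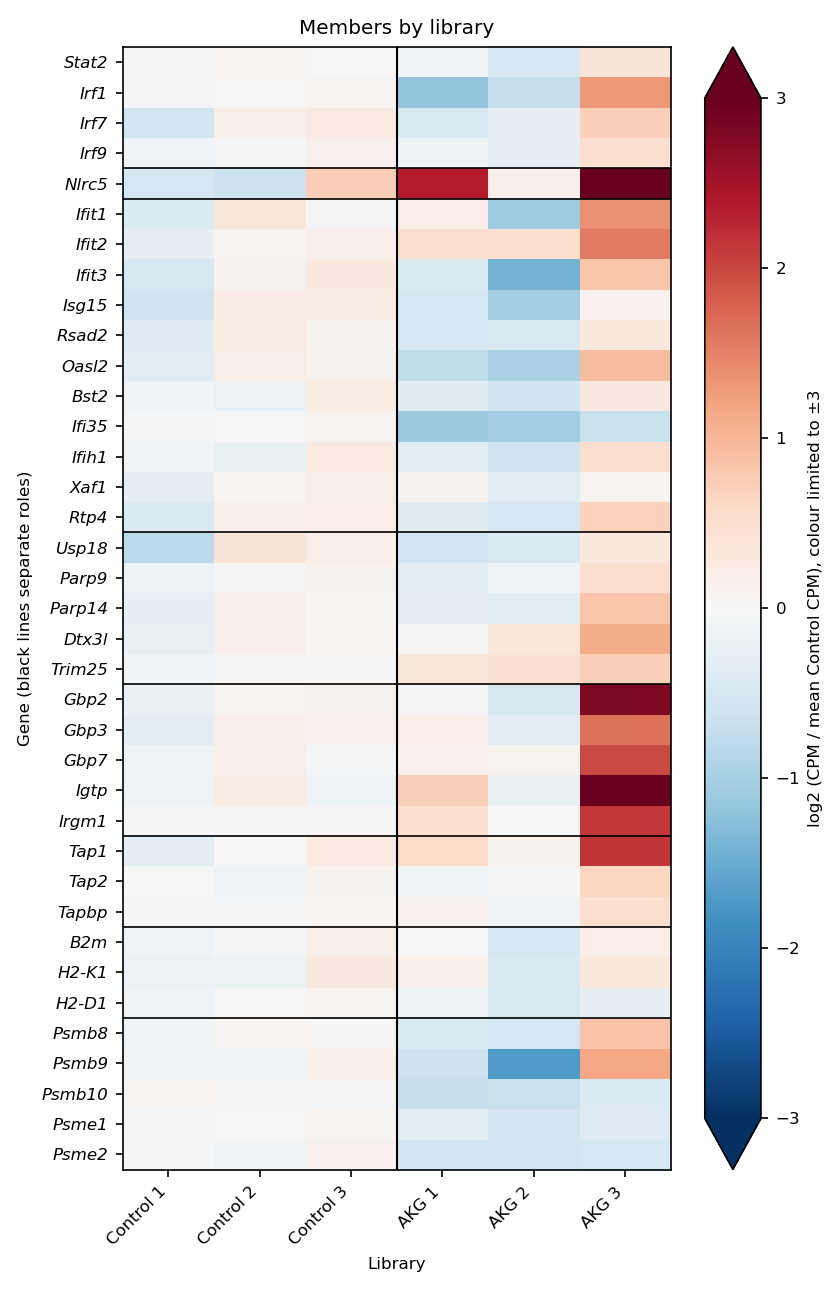
Each row is 1 of the 37 genes and each column 1 library, and the colour is the log2 ratio of CPM to the mean of the 3 Control libraries. The AKG 3 column is above 0 for most genes and deep for Nlrc5, the GTPases and Tap1, the AKG 2 column is mostly below 0, and Ifi35, H2-D1, Psmb10, Psme1 and Psme2 are below 0 in all 3 AKG columns.

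The transcription factors that carry the interferon signal did not pass the test with all libraries. Irf1, a factor induced directly by interferon-γ, was at 24, 25.0 and 26.4 CPM in Control and 11.2, 15.5 and 62.3 CPM in AKG 1, 2 and 3. The Controls were close together, AKG 1 and AKG 2 were below all of them and AKG 3 above all of them. The log2 fold change was 0.24 (SE 0.767, edgeR adjusted p = 0.819), and without AKG 3 Irf1 fell by 0.91 (SE 0.132, edgeR adjusted p = 5.18e-05). Stat2 was at 32.7 to 35.3 CPM in Control and 31.6, 24.2 and 44.4 CPM in AKG. Irf9, its partner, was at 25.2 to 29.6 CPM in Control and 24.3, 21.9 and 38.3 CPM in AKG. Irf7, which amplifies the response by driving interferon-α genes, was at 7.89, 12.9 and 13.7 CPM in Control and 8.32, 9.63 and 18.8 CPM in AKG. AKG 3 was the highest of the 6 libraries for each of these 4 factors. In the edgeR fits with all libraries and without AKG 3, the only call was the fall of Irf1 without AKG 3.

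Nlrc5, the transactivator of class I genes, had the largest fitted change of the 37 and the largest spread. It was at 0.749, 0.683 and 1.77 CPM in Control and 5.45, 1.18 and 21.3 CPM in AKG 1, 2 and 3. AKG 1 and AKG 3 were above every Control, and AKG 2 lay within their range. The log2 fold change of 3.16 (SE 1.34) was not called by edgeR (adjusted p = 0.124), nor was 1.67 without AKG 3 (SE 0.726, edgeR adjusted p = 0.105). DESeq2, which tested 36 of the 37 genes, called it higher (adjusted p = 0.0148).

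All 5 interferon-inducible GTPases were above every other library in AKG 3, at 2.73 to 6.49 times the next highest. Gbp2, a guanylate-binding protein, was at 14.8, 18.1 and 18.6 CPM in Control and 16.8, 12.4 and 120 CPM in AKG 1, 2 and 3. Igtp, an immunity-related GTPase also called Irgm3, was at 7.15, 9.13 and 7.21 CPM in Control and 12.9, 6.83 and 74.6 CPM in AKG. For both genes, AKG 3 exceeded every other library by more than 5 times. Irgm1, a regulator of the same family, was at 18.4, 19.8 and 19.8 CPM in Control and 27.1, 19.6 and 83.5 CPM in AKG. Gbp7 was at 29.7, 35.7 and 31.4 CPM in Control and 35.4, 34.0 and 126 CPM in AKG, and Gbp3 at 18.1, 25.2 and 24.8 CPM and 26.3, 18.1 and 71.6 CPM. AKG 1 was above all Controls for Igtp, Irgm1 and Gbp3, and AKG 2 was below the lowest Control for Gbp2 and Igtp.

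None of these 5 GTPases was called with all libraries. Their log2 fold changes ran from 0.77 (Gbp3) to 2.01 (Igtp), with SE of 0.622 to 1.11 and edgeR adjusted p of 0.21 to 0.37, and their median was 1.17. Without AKG 3 the median was 0.11, and the values of -0.23 (Gbp2) to 0.34 (Igtp) were not called either. With AKG 3 alone, which was set apart by such values, Igtp was at 3.25 and Gbp2 at 2.82. In the authors' deposited table the log2 fold change of Gbp2 was 2.03 with a p-value of 1.

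**Figure D2:**
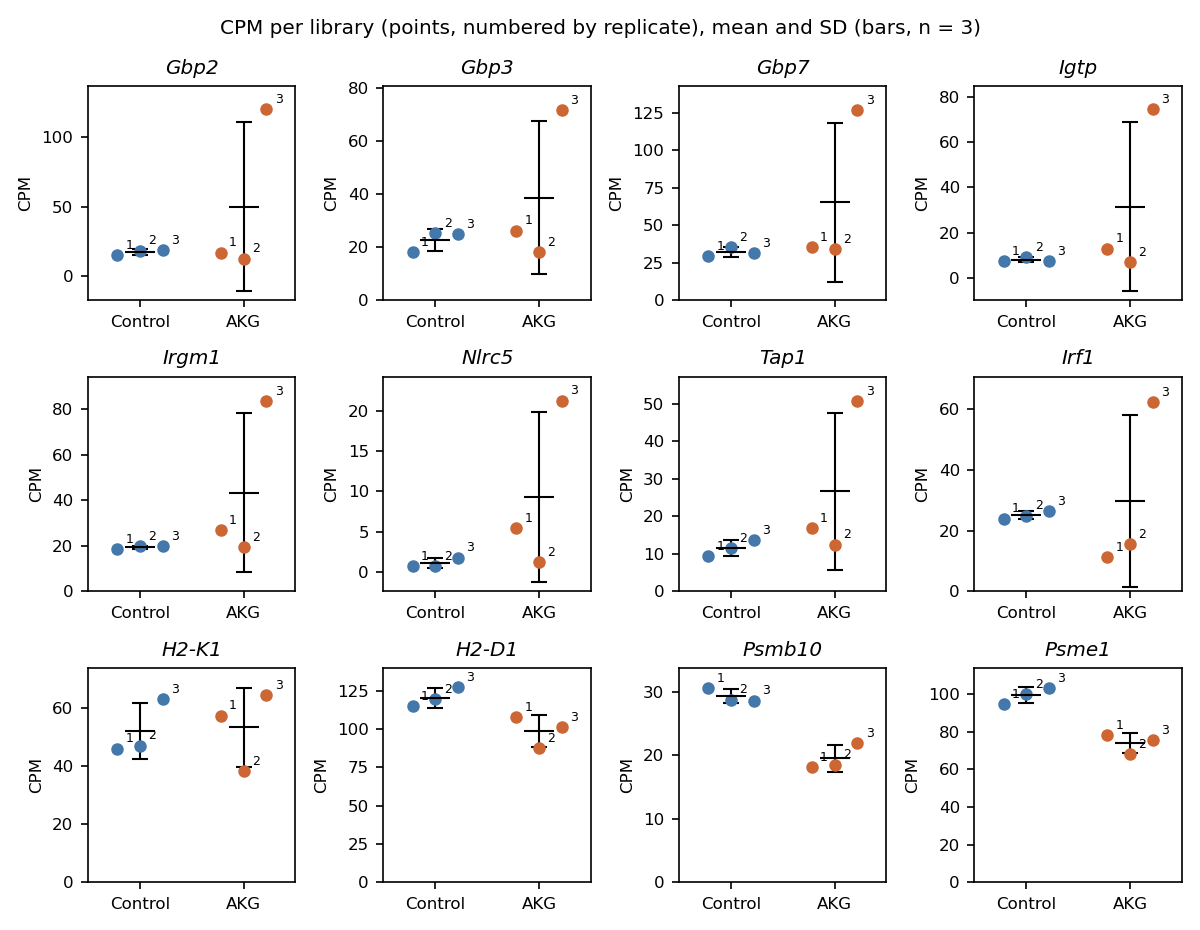
CPM of 12 of the 37 genes, with 1 point per library numbered by replicate, and the group mean and SD (n = 3) as bars. In the first 8 panels (Gbp2 to Irf1) AKG 3 is far above the other 5 libraries, whereas in the panels of H2-D1, Psmb10 and Psme1 all AKG points lie below all Control points.

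Of the 11 antiviral effectors, 5 lay below all Controls in AKG 1 and 10 in AKG 2, and 8 lay above all Controls in AKG 3. Of all tested genes, 40.7%, 40.1% and 40.5% did so. Ifi35, which binds the protein Nmi and modulates innate signalling, was at 16, 16.3 and 17.4 CPM in Control and 7.64, 8.08 and 10.4 CPM in AKG. All AKG libraries were below all Controls, and the log2 fold change was -0.93 (SE 0.135, edgeR adjusted p = 7.98e-05). It was -1.07 without AKG 3 and also kept its call with total-count scaling and in the FPKM fits.

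Ifit2, of the family that binds foreign RNA, was at 10.2, 12.9 and 13.5 CPM in Control and 17.2, 17.5 and 36.1 CPM in AKG 1, 2 and 3. All AKG libraries were above all Controls. The log2 fold change was 0.95 (SE 0.357, edgeR adjusted p = 0.0775), and without AKG 3 Ifit2 rose by 0.51 (SE 0.133, edgeR adjusted p = 0.00523). Ifit1, of the same family, was at 2.25, 3.79 and 2.94 CPM in Control and 3.43, 1.43 and 7.71 CPM in AKG. Ifit3, whose reads can be split with its near copy Ifit3b, was at 4.49, 6.71 and 7.58 CPM and 4.72, 2.36 and 11.1 CPM.

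Oasl2, an oligoadenylate synthetase-like protein, was at 11.0, 15.4 and 14.8 CPM in Control and 8.09, 7.02 and 25.9 CPM in AKG. Like Irf1, it was below every Control in AKG 1 and AKG 2 and above every Control in AKG 3. Without AKG 3 it fell by 0.85 (SE 0.167, edgeR adjusted p = 0.000653). Ifit3, Rsad2 (viperin, which blocks viral replication), Bst2 (tetherin, which holds virions at the membrane) and Ifih1 (the RNA sensor MDA5) also fell without AKG 3, by 0.80, 0.48, 0.47 and 0.43, with edgeR adjusted p of 0.0241 to 0.0484. With all libraries their values were -0.18 to -0.04 and none was called. Isg15, the ubiquitin-like modifier, was at 2.52, 4.47 and 4.49 CPM in Control and 2.70, 1.86 and 4.16 CPM in AKG, at -0.39 (SE 0.31, edgeR adjusted p = 0.319). Rtp4 and Xaf1 were at 0.05 and -0.03 and were not called with or without AKG 3.

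Among the modifiers, Trim25, the ubiquitin ligase that activates the RNA sensor RIG-I, rose in every AKG library. It was at 50.6, 54.5 and 54.6 CPM in Control and 67.1, 73.3 and 87.2 CPM in AKG, without overlap. The log2 fold change was 0.51 (SE 0.0942, edgeR adjusted p = 0.000524), and 0.40 without AKG 3 (edgeR adjusted p = 0.000446). Dtx3l and Parp9 form a ubiquitin ligase complex, and they differed in their values: Dtx3l was at 13.5, 17.6 and 16.4 CPM in Control and 15.4, 20.6 and 34.3 CPM in AKG, and Parp9 at 23.3, 26.6 and 28.1 CPM and 21, 23.9 and 36.3 CPM. Neither was called by edgeR with all libraries or without AKG 3. DESeq2 called Dtx3l higher (0.57, adjusted p = 0.0331), as did edgeR without AKG 1 or with the replicate number as a block. Parp14, an ADP-ribosyltransferase, was at 33.1, 44.3 and 41.4 CPM in Control and 32.7, 31.1 and 70.3 CPM in AKG. It fell by 0.31 without AKG 3 (edgeR adjusted p = 0.0374). Usp18, which removes ISG15 and restrains the receptor, was at 1.91, 4.35 and 3.68 CPM in Control and 2.25, 2.42 and 4.11 CPM in AKG and was not called.

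**Figure D3:**
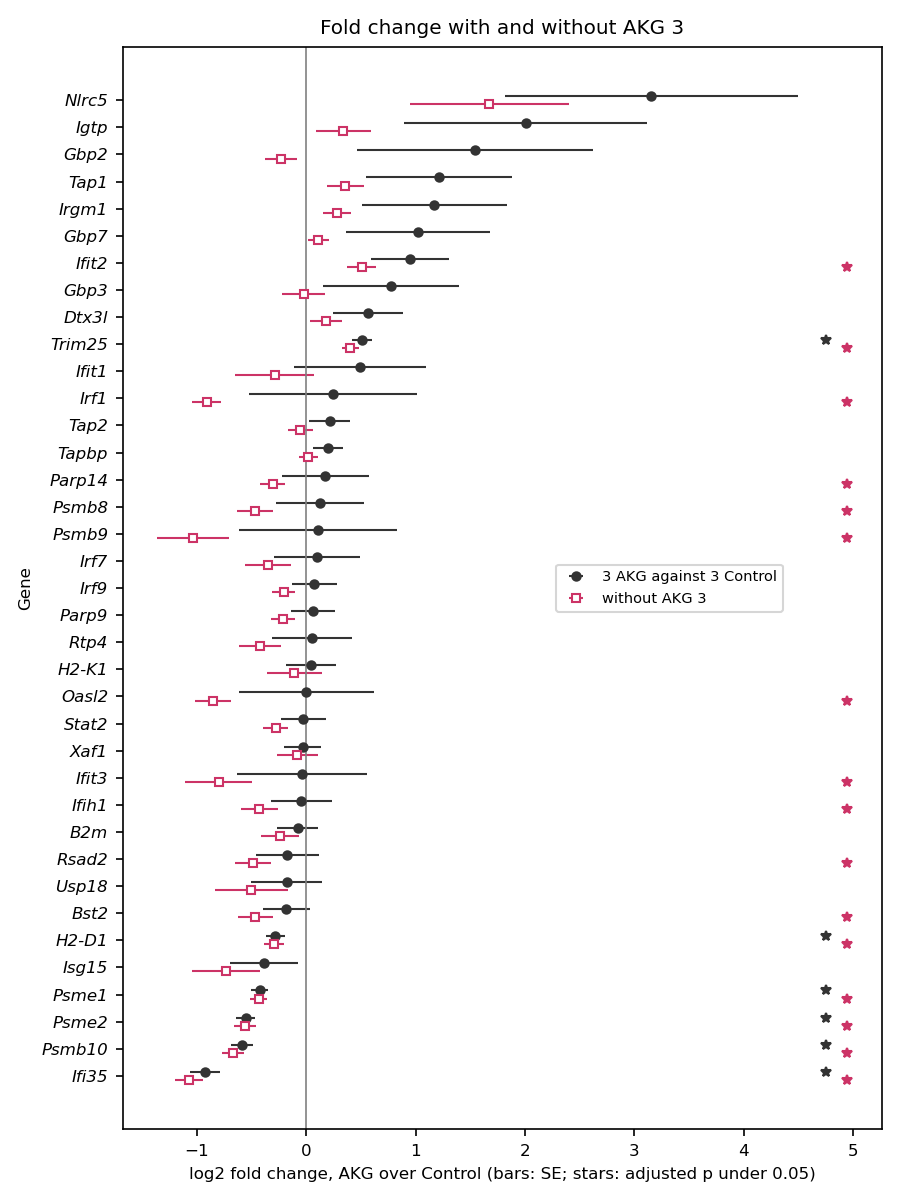
Log2 fold change of AKG over Control for the 37 genes with SE bars, from all 6 libraries (filled circles) and without AKG 3 (open squares), and stars for an edgeR adjusted p under 0.05. For the genes at the top the open squares lie far left of the circles (Igtp 2.01 and 0.34), and stars of the fit without AKG 3 number 16 against 6.

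Of the transporter and its bridge, Tap1 was at 9.39, 11.6 and 13.7 CPM in Control and 16.8, 12.5 and 50.7 CPM in AKG 1, 2 and 3. AKG 3 was 4.39 times the Control mean, AKG 1 was above the Controls and AKG 2 among them. Tap1 was at a log2 fold change of 1.21 (SE 0.668, edgeR adjusted p = 0.207), and 0.35 without AKG 3 (edgeR adjusted p = 0.1). Its partner Tap2 was at 18, 16.5 and 19.4 CPM in Control and 17.0, 17.3 and 27.9 CPM in AKG. Tapbp (tapasin), which joins the transporter to the class I molecule, was at 52.0, 51.8 and 55.8 CPM and 57.8, 49.5 and 75.6 CPM. Both were highest in AKG 3, and neither was called with all libraries or without AKG 3.

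The class I molecules themselves were among the most abundant of the 37 per length, at a mean Control FPKM of 118 for B2m, 51.0 for H2-D1 and 27.8 for H2-K1, whereas Nlrc5 was at 0.22. B2m, the light chain, was at 108, 115 and 133 CPM in Control and 118, 82.5 and 137 CPM in AKG. H2-K1, a heavy chain, was at 45.9, 47.0 and 63.0 CPM and 57.3, 38.3 and 64.3 CPM. For both, AKG 2 was below and AKG 3 just above all Controls, and neither was called by edgeR with all libraries or without AKG 3. H2-D1, the other heavy chain, was at 115, 119 and 127 CPM in Control and 108, 87.6 and 101 CPM in AKG. It fell by 0.28 (SE 0.0857, edgeR adjusted p = 0.0135), a call that was lost without Control 3 (edgeR adjusted p = 0.0679) or without AKG 2 (edgeR adjusted p = 0.0666), and the value was 0.16 with total counts as the scaling. Heavy chain genes are near copies of one another, so the split of reads between H2-K1, H2-D1 and the H2-Q genes is uncertain.

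Of the 5 proteasome genes, 3 were lower in all AKG libraries. Psme1 and Psme2, which encode the PA28 activator, fell: Psme1 was at 94.7, 100 and 103 CPM in Control and 78.2, 67.9 and 75.4 CPM in AKG, and Psme2 at 39.4, 37.2 and 44.3 CPM and 27.2, 27.3 and 27.8 CPM. The groups did not overlap for either gene, and AKG 3 was like AKG 1 and AKG 2. The log2 fold changes were -0.43 (SE 0.0766, edgeR adjusted p = 0.000421) and -0.56 (SE 0.09, edgeR adjusted p = 0.00019), and -0.44 and -0.56 without AKG 3, where both kept the call. Psmb10, a catalytic subunit, was at 30.6, 28.8 and 28.6 CPM in Control and 18.2, 18.6 and 22 CPM in AKG, and it fell by 0.58 (SE 0.1, edgeR adjusted p = 0.000292), or by 0.67 without AKG 3 (edgeR adjusted p = 5.61e-05). Psmb8 and Psmb9, the other 2 inducible catalytic subunits, split by library. Psmb8 was at 8.10, 9.38 and 8.98 CPM in Control and 6.63, 6.09 and 16 CPM in AKG. Psmb9 was at 3.27, 3.23 and 3.83 CPM and 2.25, 1.06 and 7.71 CPM. Both fell without AKG 3, by 0.47 (edgeR adjusted p = 0.029) and 1.03 (edgeR adjusted p = 0.017), and neither was called with it (0.12 and 0.11). Psmb9 therefore differed from Tap1, whose start lies 226 bases away, in AKG 1 and AKG 2, where Psmb9 was below and Tap1 within or above the Controls.

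These falls depend on how libraries are scaled. Scaled by total counts, the median of all tested genes moved to 0.45, Psmb10 was at -0.14 and Psme2 at -0.11 without a call, and Psme1 was at 0.018. Under that scaling 4 of the 37 genes were called higher (Ifit2, Trim25, Tap2 and Tapbp) and 1 lower (Ifi35), beside 56.7% and 9.12% of all tested genes. In the authors' deposited table, whose fold changes come from FPKM, H2-D1 was listed at 0.17 and Psme1 at 0.021. At a false discovery rate under 0.05 that table lists 6 of the 37 with a positive and 3 with a negative fold change, beside 16.3% and 10.4% of all named genes. H2-D1 and Psme1 are 2 of the 6, so these positive signs are not rises on the TMM scale, where both genes fell.

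Each inducible subunit replaces a constitutive one, and a ratio of the pair within a library does not depend on the scaling. The FPKM ratio of Psmb8 to Psmb5 was 0.0779, 0.104 and 0.0887 in Control and 0.136, 0.107 and 0.302 in AKG 1, 2 and 3. All AKG ratios were above all Control ratios, AKG 2 by little. The log2 difference was 0.87 (exact two-sided permutation p = 0.1, the smallest that 3 libraries against 3 can give, and 0.15 after Benjamini-Hochberg adjustment over the 3 ratios), and 0.43 without AKG 3. The ratio of Psmb9 to Psmb6 was 0.0185, 0.0270 and 0.0233 in Control and 0.0223, 0.00930 and 0.0828 in AKG, at 0.19 (exact permutation p = 0.9). The ratio of Psmb10 to Psmb7 was 0.293, 0.273 and 0.250 in Control and 0.207, 0.224 and 0.249 in AKG, at -0.27 (exact permutation p = 0.1, adjusted 0.15). All AKG ratios were below all Control ratios, AKG 3 by very little. The constitutive subunits Psmb5, Psmb6 and Psmb7 fell on the TMM scale by 0.89, 0.67 and 0.33, with edgeR adjusted p of 6.31e-07, 5.58e-06 and 0.00201, and by 0.88, 0.63 and 0.34 without AKG 3. Psmb7 was at 0.12 with total counts as the scaling.

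**Figure D4:**
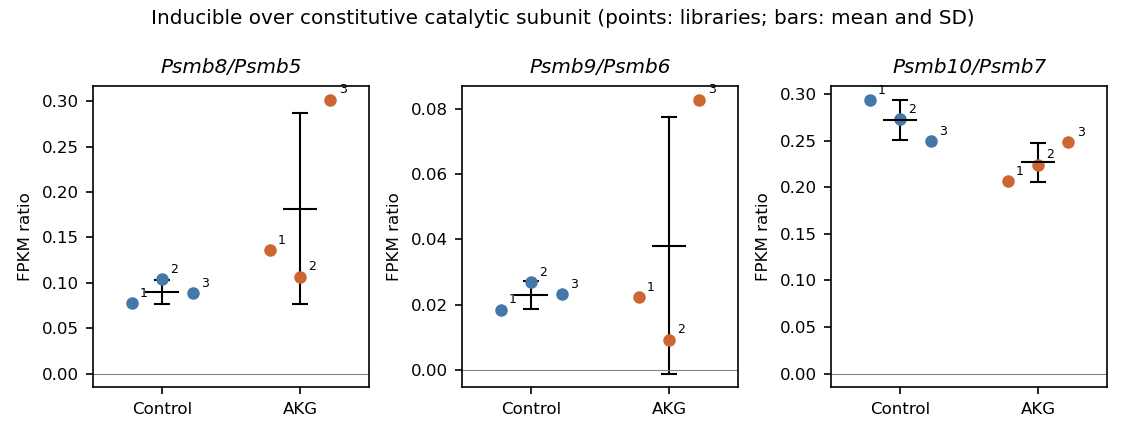
Ratio of the FPKM of each inducible catalytic subunit to that of the constitutive subunit it replaces, with 1 point per library numbered by replicate, and mean and SD (n = 3) as bars. Psmb8/Psmb5 is higher in all AKG libraries with AKG 3 at 0.302, and Psmb9/Psmb6 spans from 0.00930 to 0.0828 within AKG. Psmb10/Psmb7 is lower in all AKG libraries, though AKG 3 (0.2485) is barely below Control 3 (0.2496).

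The rest of the pathway was read upstream and downstream of these genes. All 10 interferon genes listed, among them Ifnb1, Ifng and Ifna4, were at 0 counts in every library, which allows up to 0.166 to 0.221 CPM per library. Of 14 receptor, kinase and feedback genes, 5 rose and 3 fell, where 25% and 25.2% of all tested genes did. Without AKG 3, 5 rose and 4 fell, where 24.7% and 24.3% of all tested genes did. The number that fell was 1 without Control 3 and 0 with total-count scaling, where 21.5% and 9.12% of all tested genes fell. Jak1 and Jak2, kinases of the receptors, rose by 0.66 and 0.55, and Ifnar1, a chain of the type I receptor, rose by 0.50 (edgeR adjusted p of 6.6e-06, 0.000118 and 0.000132). Ifnar2, the other chain, fell by 0.41 (edgeR adjusted p = 0.00103). These 4 did not depend on AKG 3 and kept their direction and call without it. Of 14 nucleic acid sensing genes tested, 2 rose and 7 fell (25% and 25.2% of all tested genes). Without AKG 3 these were 2 and 8 (24.7% and 24.3% of all tested genes). Ticam1, the adaptor of Tlr3, rose by 0.86 (edgeR adjusted p = 2.6e-05), and Traf3 fell by 0.60 (edgeR adjusted p = 0.000356). Scaled by total counts, 5 of these sensing genes rose and 0 fell (56.7% and 9.12% of all tested genes). Leaving out Control 1, Control 2, AKG 1 or AKG 2 left 1 that rose, where 20.7% to 24% of all tested genes did. Of the other interferon regulatory factors and their partners, Irf2bp2 rose by 0.97, and Irf3 and Irf4 fell by 0.41 and 1.64. The call of Irf4 was lost without Control 2 or AKG 3, and Irf3 was at 0.031 with total-count scaling.

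The other interferon-inducible GTPases were, in sum, also highest in AKG 3. Over the 12 genes of that list in the table, the sum was 160, 194 and 203 CPM in Control and 253, 200 and 1043 CPM in AKG 1, 2 and 3. Of 10 tested, 1 rose (Gbp8, 2.43, edgeR adjusted p = 0.00896), where 25% of all tested genes did. Gbp8 rested on few counts, at 5, 7 and 6 in Control and 26, 14 and 77 in AKG 1, 2 and 3. Without AKG 3, 2 rose (Gbp8 by 1.52 and Gbp9 by 0.44) and 1 fell (Gbp5 by 0.57). In that fit 24.7% of all tested genes rose and 24.3% fell. The median of the 10 tested was 1.85, or 0.35 without AKG 3. Iigp1 was at 8.85, 13 and 14.1 CPM in Control and 42.4, 21.4 and 187 CPM in AKG, so that all AKG libraries were above all Controls. It was not called by edgeR (2.81, adjusted p = 0.0905). Gbp6 was at 8.37, 12.1 and 11.9 CPM and 18.4, 11.8 and 123 CPM. Reads of Tgtp1 and Tgtp2, and of other close copies in these families, can be split, so single values are uncertain.

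Of 54 other interferon-stimulated genes tested, 7 rose and 15 fell (25% and 25.2% of all tested genes), with a median of -0.04. Without AKG 3, 4 rose and 22 fell (24.7% and 24.3% of all tested genes), with a median of -0.37. With total-count scaling 15 rose and 5 fell (56.7% and 9.12% of all tested genes). Oas2, which makes the oligoadenylates that activate RNase L, was at 7.42, 9.69 and 11.9 CPM in Control and 2.30, 2.73 and 3.72 CPM in AKG and fell by 1.72 (edgeR adjusted p = 3.01e-05). Ifi203, a DNA-binding protein of the p200 family, fell by 1.04 (edgeR adjusted p = 2.02e-06), and Trafd1, which restrains innate signalling, rose by 0.79 (edgeR adjusted p = 1.41e-06). Without AKG 3 the values of these 3 were -1.93, -1.13 and 0.79, and each kept its call. The chemokine Cxcl9 was at 4.36, 5.34 and 4.12 CPM in Control and 1.07, 0.683 and 13.8 CPM in AKG, and Cxcl10 reached 17.2 CPM in AKG 3 and at most 0.506 CPM elsewhere.

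Of 15 other class I heavy chain and loading genes tested, 5 rose and 4 fell (25% and 25.2% of all tested genes). Fewer rose without Control 1 (2), Control 2 (3) or AKG 3 (3), and fewer fell without Control 2 (2). Of all tested genes, 20.7%, 21.4% and 24.7% rose in those fits, and 21.9% fell without Control 2. With total-count scaling 8 rose and 1 fell (56.7% and 9.12% of all tested genes). Cd1d1, a class I-like molecule that presents lipids, was at 3.33, 3.98 and 3.24 CPM in Control and 25.6, 22.2 and 21.1 CPM in AKG and rose by 2.70 (SE 0.14, edgeR adjusted p = 1.21e-08), or by 2.77 without AKG 3. Calr, the chaperone calreticulin of the loading complex, fell by 0.80, and Pdia3, its partner, by 0.44 (edgeR adjusted p of 1.59e-05 and 0.000407), and by 0.88 and 0.44 without AKG 3, though Pdia3 was at 0.01 with total counts as the scaling. Of 7 class II presentation genes tested, 6 fell, 0 rose and the median was -1.69, where 25.2% of all tested genes fell and 25% rose. Of 8 tested without AKG 3, 6 fell, where 24.3% of all tested genes did. Cd74, the invariant chain, was at 11.2, 8.45 and 16 CPM in Control and 4.05, 2.55 and 4.33 CPM in AKG. The macrophage, dendritic cell and lymphocyte markers given above were lower in the same libraries, and their part in the class II result was not tested.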

How the data were processed

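The authors deposited estimated counts and FPKM (fragments scaled to length and library total) per gene and library, with their log2 fold change and p-value, per the file headers. The submitters' processing notes name HISAT2 2.1.0, RSEM 1.2.19 and DESeq2 1.20.0. No role, genome build or annotation is given in the sources used here. Counts were whole numbers and went into edgeR 4.0.16 under R 4.3.3 (filterByExpr with minimum count 10 and minimum total 15, TMM scaling, robust quasi-likelihood test, Benjamini-Hochberg adjustment). Each SE is the absolute log2 fold change over the root of F from that test. Rows without a symbol (30) held 3.95e-05% of counts. On simulated counts for 13117 genes the test recovered 196 of 200 changed genes with 11 false calls. The simulation had equal numbers of rises and falls and no library apart, so it does not bear on the scaling or on AKG 3. Alternatives used DESeq2 1.42.0 and limma 3.58.1. Subunit ratios came from FPKM. The genes and lists were chosen with earlier results of these data known. All 37 genes are given, with up to 4 genes per further list by smallest p. Cxcl9, Cxcl10, Ifnar2, the genes apart in AKG 3 and the Irf1 and Tap1 sequences were chosen after their values were seen. A few genes of the further lists are not reported here.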

Additional observations from a re-analysis of the deposited data

How the results depend on the processing

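With total counts as the scaling, and with limma on log2(FPKM + 1) and on log2(FPKM + 0.1), all genes gave 7431, 6732 and 6725 higher. They gave 1196, 1068 and 1067 lower. These were 56.7%, 58.1% and 58.1% higher and 9.12%, 9.22% and 9.21% lower, of 13117, 11581 and 11581 genes. Of the 37 genes, 4, 11 and 12 were higher and 1, 1 and 1 lower. The FPKM fits took genes with an FPKM of at least 1 in 3 libraries, which left out Nlrc5. In the same order, log2 fold changes turned positive for H2-D1 (0.16, 0.16 and 0.16), Psme1 (0.018, 0.019 and 0.019), Pdia3 (0.0089, 0.0044 and 0.0045), Psmb7 (0.12, 0.12 and 0.12) and Psme3 (0.27, 0.24 and 0.25), for Irf3 with total counts (0.031), and for Tlr3 in the FPKM fits (0.13 and 0.15). With total counts, 9 of the 37 lay above and 1 below all Controls, beside 59.6% and 10.5% of all tested genes. DESeq2 gave 4 higher and limma-voom 2, and both gave the same 5 lower. Of all tested genes, DESeq2 called 20.6% higher and 20.5% lower, and limma-voom 24.5% and 25.4%. Size factors of the RLE type and the other low-count filters left the 6 called genes as they were. Deviations of same-numbered libraries correlated at 0.18, -0.06 and 0.06. The labels do not say whether the numbers pair the samples, and correlations over so few libraries cannot settle it. With the replicate block, 4 of the 37 were higher and 5 lower, and all genes gave 3257 and 3314.

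Leaving out 1 library, or 2 AKG libraries, gave 1 to 25 of the 37 higher and 4 to 15 lower. The highest count came from AKG 3 alone and the lowest of the lower calls from leaving out Control 3 or AKG 2. All genes gave 2728 to 3296 higher and 2800 to 3243 lower. With 1 library left out, 2 to 8 of the 37 lay above all Controls and 5 to 15 below. The shares of all tested genes were 31.7% to 33.7% above and 32.4% to 33.2% below. With 1 library or 2 AKG libraries left out, log2 fold changes ranged from -0.49 to 0.39 for Stat2 and -1.16 to 1.32 for Irf1. They ranged from -1.40 to 0.84 for Ifit3, -0.96 to 0.92 for Oasl2, -0.58 to 0.52 for Ifih1 and -0.34 to 0.83 for Parp14. The ranges were -0.47 to 2.82 for Gbp2, -0.53 to 0.86 for Psmb8 and -1.69 to 1.17 for Psmb9. Subunit ratio differences, with 1 library left out, ranged from 0.43 to 1.18 for Psmb8, -0.65 to 0.92 for Psmb9 and -0.33 to -0.20 for Psmb10.

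With 3 libraries a group and 1 AKG library apart, differences carried mainly by that library did not pass the test for the 5 GTPases, Nlrc5 and Tap1, and whether it came from 1 mouse is not given. A fit with a lone AKG library takes its spread from the Controls. Genes at a few CPM, such as Nlrc5, Psmb9 and Usp18, rest on few counts, and intervals for counts at 0 cover counting error only. Reads shared by near copies limit single values for the heavy chains and GTPases. The causes of these dependences were not tested.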
